A study of Homo sapiens with 10 samples.

Results

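The genes described here encode the enzymes and core subunits that place repressive methyl groups on histone H3, at the lysines known as H3K9 and H3K27. They were chosen by symbol, as EHMT1, EHMT2, SUV39H1, SUV39H2, SETDB1, SETDB2, EZH1, EZH2, EED and SUZ12. A value was found for 9 of these 10 genes, each from 1 probe set, among 17687 genes measured. No probe set carries the symbol EED in the annotation used here, so EED was not analysed. RNA of 2 prostate cancer cell lines was measured on 10 Affymetrix Clariom S arrays, and every value below is a log2 signal or a difference of log2 signals. CWR22Rv1 is a castration-resistant line with luminal features, and PC3 is a line from a bone metastasis that lacks some of them.

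All cells were kept in arginine-free RPMI with dialyzed serum, and 200 mg/L arginine was added back for the controls. In the CWR22Rv1 time course, 1 array held cells kept 24 h in control medium, 1 held cells starved for 24 h and 1 held cells starved for 48 h, so the 48 h array and its control also differ in their time in medium. In the second CWR22Rv1 experiment, 1 array each held control cells, starved cells and starved cells given 5 mM DMKG, a membrane permeable form of α-ketoglutarate, all after 48 h. This dose is that of the sample labels, and the study's methods give the same figure in μM, so the dose is not settled. In PC3 cells, 2 control arrays and 2 starved arrays were made after 48 h. The labels do not say whether the PC3 arrays came from separate cultures, so the spread between them may be technical. The model used a single estimate of spread per gene for both lines. That estimate pools the spread between PC3 arrays with the disagreement between the CWR22Rv1 experiments at 48 h. A p-value in either line therefore also rests on arrays of the other line. Each line is a single established line. Differences in RNA per cell and in the make-up of the cell population cannot be told apart in these bulk samples.

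Methylation of H3K9 is laid down by several families of SET domain enzymes. EHMT1 (GLP) and EHMT2 (G9a) work as a heterodimer that makes mono- and dimethyl H3K9 in euchromatin, SUV39H1 and SUV39H2 make trimethyl H3K9 in constitutive heterochromatin, where HP1 proteins read it, and SETDB1 makes trimethyl H3K9 at silenced retroelements and genes. Methylation of H3K27 is the work of Polycomb repressive complex 2 (PRC2), in which EZH2 or EZH1 is the catalytic subunit and SUZ12 and EED form the core that either enzyme needs. EZH2 is typical of dividing cells and is high in advanced prostate cancer, whereas EZH1 is found in dividing and resting cells alike. These enzymes use S-adenosylmethionine, while the Jumonji demethylases that remove the same marks use α-ketoglutarate.

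The promoters of the genes on which the results turn are shown because EZH2, SUZ12 and SUV39H1 fell in starved PC3 cells while EZH1 had the opposite sign. RefSeq windows of 250 bases directly upstream of an annotated start (GRCh38.p14, gene strand, 5′ to 3′) were searched on both strands for a set of short motifs. The E2F core was written as TTCCCGC or with the middle letters changed to give TTGGCGC, or TTCGCGC, or else TTGCCGC. The CHR element of mitotic genes was TTTGAA or TTCGAA. The CCAAT box, bound by NF-Y, is its own 5 letters. Matches are in capitals, and a match on the other strand appears as its reverse complement. For SUV39H1 the inner of its 2 annotated starts is shown, and for EZH2 the outermost, the one with a match in each case. The other start of each gene held none of the motifs, nor did the windows of EHMT2 and SUV39H2, which also fell.
EZH2 (chr7:148884292-148884541, minus strand): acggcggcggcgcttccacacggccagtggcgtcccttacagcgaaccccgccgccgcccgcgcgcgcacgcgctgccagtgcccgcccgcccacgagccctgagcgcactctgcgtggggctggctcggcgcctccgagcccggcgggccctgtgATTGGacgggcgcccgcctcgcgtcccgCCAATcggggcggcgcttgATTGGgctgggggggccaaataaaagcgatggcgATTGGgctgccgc
SUZ12 (chr17:31936757-31937006, plus strand): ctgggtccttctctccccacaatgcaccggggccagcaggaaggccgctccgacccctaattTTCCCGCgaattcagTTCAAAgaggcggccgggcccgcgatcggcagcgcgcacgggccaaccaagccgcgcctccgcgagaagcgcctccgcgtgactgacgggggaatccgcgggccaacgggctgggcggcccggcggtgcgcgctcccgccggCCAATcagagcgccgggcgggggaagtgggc
EZH1 (chr17:42745041-42745290, minus strand): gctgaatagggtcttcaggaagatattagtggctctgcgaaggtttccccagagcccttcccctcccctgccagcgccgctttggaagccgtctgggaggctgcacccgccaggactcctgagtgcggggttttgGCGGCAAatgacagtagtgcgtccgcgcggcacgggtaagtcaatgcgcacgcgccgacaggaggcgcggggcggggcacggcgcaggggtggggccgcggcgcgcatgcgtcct
SUV39H1 (chrX:48696484-48696733, plus strand): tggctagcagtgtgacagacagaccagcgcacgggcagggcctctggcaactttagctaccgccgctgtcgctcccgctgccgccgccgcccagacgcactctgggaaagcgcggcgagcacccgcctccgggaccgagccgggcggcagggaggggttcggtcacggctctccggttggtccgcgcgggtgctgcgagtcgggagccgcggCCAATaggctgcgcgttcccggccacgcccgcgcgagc
The EZH2 window held 4 copies of the CCAAT box, 3 of them on the other strand, and neither an E2F core nor a CHR element. SUZ12 had all 3 motifs, EZH1 had only an E2F core, and SUV39H1 had only a CCAAT box. Among the windows not shown, that of SETDB2, which was called higher in PC3 cells, held 2 CCAAT boxes, and that of EED held 1. Over the 13 windows of the 10 genes, 5 held a CCAAT box, 2 an E2F core and 1 a CHR element. Of 35116 windows of all genes, 32.0% held a CCAAT box, 10.9% an E2F core and 14.3% a CHR element. The match is of letters only.

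Before the values, 3 features of the arrays bear on them. In the DMKG experiment 13.2% of genes had exactly the same value on all 3 arrays and 44.4% on at least 1 pair, against 0.204% on any pair of the time course and 0.0735% in PC3 cells, so a difference of 0 there is not a measured absence of change. SUZ12 was 10.80 on all 3 of those arrays, and SETDB2 was 8.18 on both the control and the DMKG array. The 95th percentile of the 612 negative control probe sets lay between 6.78 and 8.75 on the arrays. EZH1 and SETDB2 lay below it on all 4 PC3 arrays, and SETDB2 also on the 48 h array of the time course. The lines matched their labels by marker: FOLH1, a prostate surface antigen, was 10.7 to 13.3 in CWR22Rv1 and 3.33 to 3.80 in PC3 cells, and CDH1, the epithelial cadherin, was 11.3 to 11.9 and 2.90 to 3.46. Of the 6 luminal markers, KLK3 (6.19 to 7.83 and 6.89 to 7.26) and HOXB13 (9.04 to 11.4 and 8.90 to 12.1) did not separate them. Of the 4 epithelial markers, KRT18 (12.10 to 14.42 and 12.21 to 12.56) did not separate the lines, and KRT8 (14.01 to 14.97 and 12.91 to 13.98) barely did. The fibroblast markers COL1A1, DCN and PDGFRB and the leukocyte markers PTPRC, CD3E and CD14 were at most 5.95 on every array. The fibroblast marker COL1A2 was 6.67 to 8.36 in CWR22Rv1 and 8.30 to 8.81 in PC3 cells, LUM reached 6.58 in CWR22Rv1 cells, and the leukocyte marker CD68 reached 10.6 in PC3 cells.

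In PC3 cells, 5 of the 9 methyltransferase genes fell with starvation and 1 rose. The 5 were SUV39H1, EHMT2, EZH2, SUZ12 and SUV39H2, and SETDB2 rose. By the same limma test 10.0% of all genes fell and 9.59% rose, 19.6% in either direction. In CWR22Rv1 cells, none of the 9 passed the test at 48 h, where 3.74% of all genes fell and 3.20% rose, 6.94% in either direction. At an unadjusted p under 0.05 in limma, 2 of the 9 were lower there (EZH2 and SUV39H2) and 1 was higher (EZH1). At that level 1839 of all 17687 genes were lower and 1778 were higher. The median of the 9 genes was -0.66 in PC3 cells and -0.18 in CWR22Rv1 cells, against 0.02 over all genes in each. In PC3 cells both starved arrays lay below both controls for 6 of the 9 and above them for the other 3, as was so for 28.6% and 31.3% of all genes.

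**Figure D1:**
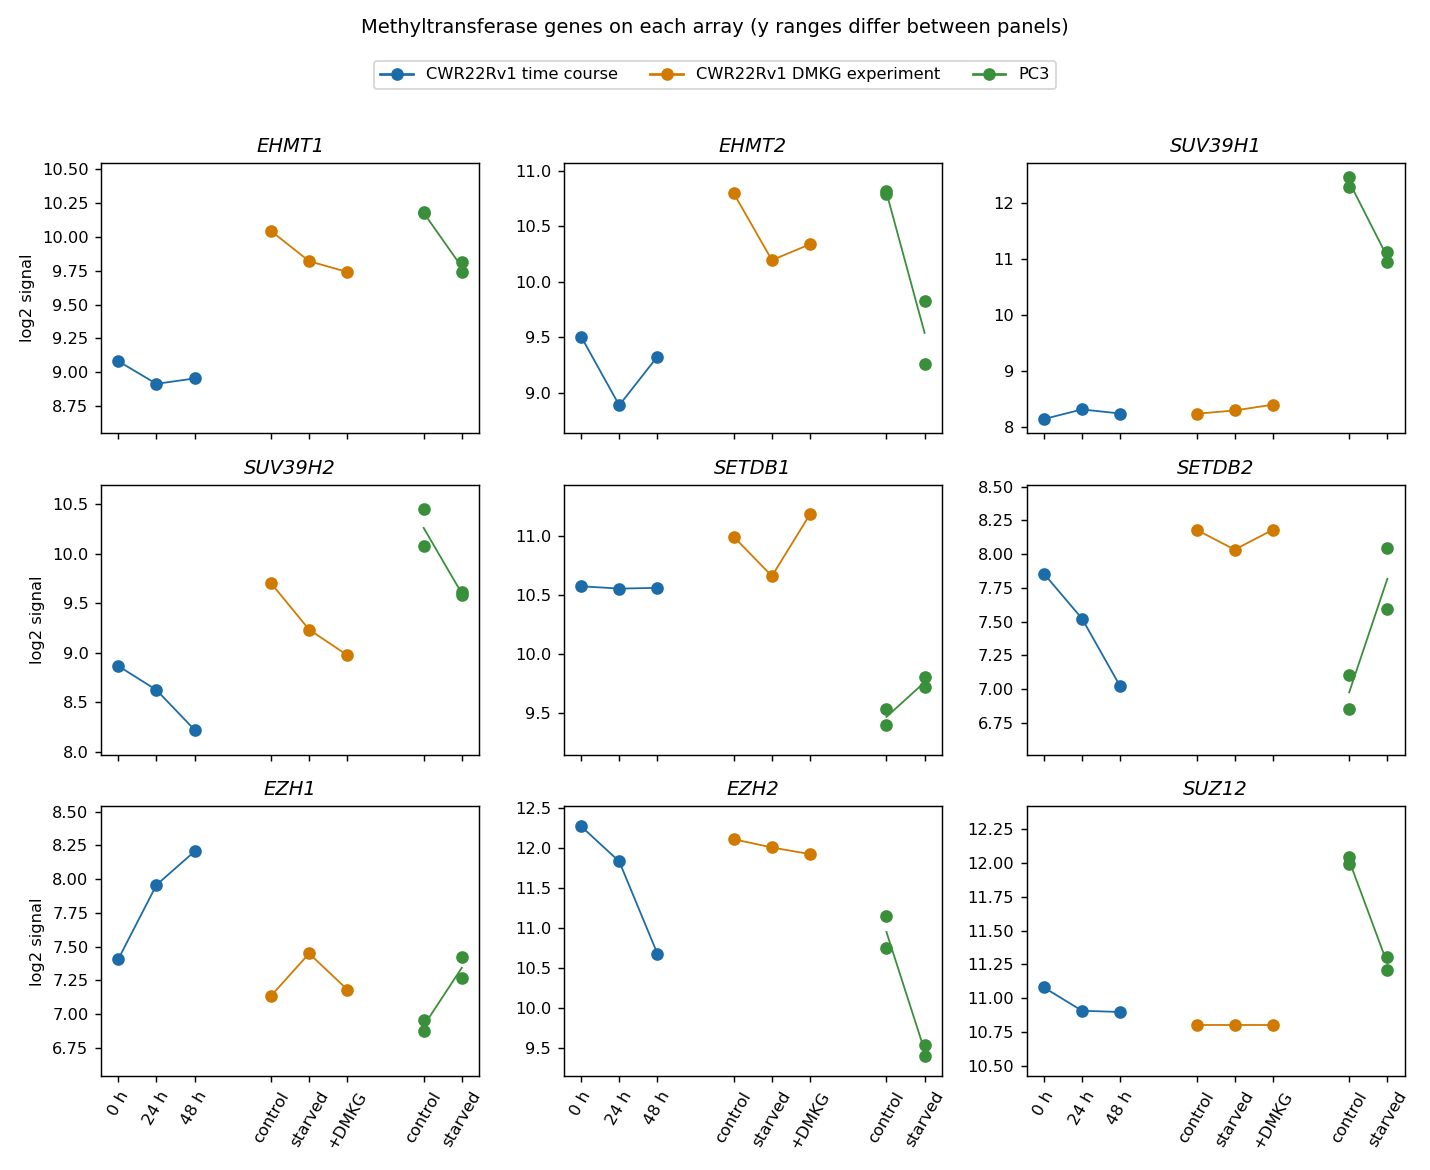
Log2 signal of the 9 methyltransferase genes on each of the 10 arrays, 1 panel per gene, with the arrays along the horizontal axis grouped as the CWR22Rv1 time course, the CWR22Rv1 DMKG experiment and PC3 cells. Each point is 1 array, lines join the arrays or, for PC3 cells, the group means, and the vertical range differs between panels. In PC3 cells SUV39H1 drops from 12.30 and 12.48 to 11.12 and 10.96, while in CWR22Rv1 cells it stays between 8.14 and 8.39.

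SUV39H1, the trimethyl H3K9 enzyme of pericentric heterochromatin, gave the smallest p of the 9 genes in PC3 cells. Its signal was 12.30 and 12.48 in the controls and 11.12 and 10.96 after starvation. The groups lay more than 1 log2 unit apart. The fitted change was -1.35 (SE 0.18, 95% interval -1.75 to -0.94, adjusted p = 0.00186 in limma over all genes). In CWR22Rv1 cells the same gene read 8.14 at 0 h, 8.31 at 24 h and 8.24 at 48 h in the time course, and 8.23, 8.29 and 8.39 in control, starved and DMKG-treated cells of the other experiment. No CWR22Rv1 array differed from another by as much as the PC3 groups did, and the fitted 48 h change was 0.08 (SE 0.18, adjusted p = 0.877 in limma). The difference between the lines in this response was -1.43 (SE 0.25, adjusted p = 0.0220 in limma). It was the 1 difference between the lines that passed among the 9 genes, where 2.43% of all genes passed in the lower and 1.97% in the higher direction, 4.40% in either. This call was lost in 8 of the 10 fits that left out a single array. Those fits dropped any one of the 4 PC3 arrays, the 0 h or 48 h array of the time course, or the control or starved array beside DMKG. The remaining fits dropped the 24 h or the DMKG array and could not change the call, since each of these arrays has its own effect in the model.

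SUV39H2, its paralog, was lower in starved cells of all 3 experiments. It read 8.87, 8.62 and 8.22 at 0, 24 and 48 h, and 9.70 in control, 9.23 in starved and 8.98 in DMKG-treated cells. In PC3 cells it was 10.07 and 10.45 in the controls and 9.58 and 9.62 after starvation. Each starved value lay below the control of its own experiment. The change was -0.66 in PC3 cells (SE 0.19, adjusted p = 0.0468 in limma) and -0.56 in CWR22Rv1 cells (SE 0.19, adjusted p = 0.141). The PC3 call stood close to the threshold, and it was held in 2 of 10 fits that left out a single array. Those 2 dropped the 24 h or the DMKG array, which repeats the main fit, so every fit that could change the call lost it. It was lost with quantile normalization (adjusted p = 0.0534), with each array centred on its median (0.0650), with the PC3 replicate number as a block (0.0610) and with PC3 cells fitted on their own (0.0593). The 2 lines differed by -0.10, with a 95% interval from -0.73 to 0.52.

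EHMT2, the G9a subunit of the dimethyl H3K9 enzyme, read 10.82 and 10.79 in PC3 controls and 9.82 and 9.25 after starvation. The starved arrays differed from each other by more than the controls did, and both lay well below them. The gene fell by 1.27 (SE 0.23, adjusted p = 0.00729 in limma), a call lost only without starved replicate 2 among the fits that left out 1 array (adjusted p = 0.0506). In the time course it was 9.51 at 0 h, 8.89 at 24 h and 9.33 at 48 h, and in the DMKG experiment 10.80 in control, 10.20 in starved and 10.34 in DMKG-treated cells. The time course thus reached its lowest value at 24 h, and the 48 h differences were -0.18 and -0.60. The fitted CWR22Rv1 change was -0.39 (SE 0.23, adjusted p = 0.417 in limma), and the difference between the lines, -0.87 (SE 0.33), did not pass (adjusted p = 0.184).

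EHMT1, the GLP subunit that pairs with EHMT2, differed less. It was 9.08, 8.91 and 8.95 at 0, 24 and 48 h, and 10.04, 9.82 and 9.74 in control, starved and DMKG-treated cells. In PC3 cells it was 10.17 and 10.18 in the controls and 9.82 and 9.74 after starvation. All starved arrays were below their control, but neither the PC3 change of -0.40 (SE 0.17, adjusted p = 0.140 in limma) nor the CWR22Rv1 change of -0.18 (SE 0.17, adjusted p = 0.655) passed. After the mean of each experiment was taken off, EHMT1 and EHMT2 followed each other across the 10 arrays (Pearson r = 0.95, a description over arrays of 3 shared experiments).

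SETDB1, the trimethyl H3K9 enzyme recruited by TRIM28, did not pass in either line. It read 10.57, 10.55 and 10.56 at 0, 24 and 48 h. The DMKG experiment gave 10.99 in control, 10.66 in starved and 11.18 in DMKG-treated cells, and PC3 cells 9.40 and 9.54 in controls and 9.72 and 9.80 after starvation. The starved arrays were slightly lower in CWR22Rv1 cells and higher in PC3 cells. The fitted changes were -0.17 (SE 0.18) and 0.29 (SE 0.18), with adjusted p of 0.687 and 0.312 in limma.

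SETDB2, a related SET domain protein linked to H3K9 methylation, was the 1 gene of the 9 that rose in PC3 cells. It read 6.85 and 7.10 in controls and 7.59 and 8.04 after starvation, a change of 0.84 (SE 0.24, adjusted p = 0.0449 in limma). These signals lay under the 95th percentile of the negative controls on those arrays, and the call was lost without any one of the 4 PC3 arrays (adjusted p from 0.0581 to 0.232). In the time course SETDB2 went the other way, from 7.86 at 0 h to 7.52 at 24 h and 7.02 at 48 h. The 48 h value also lay under the 95th percentile of the negative controls, which was 7.28 on that array. In the DMKG experiment it was 8.18 in control, 8.03 in starved and 8.18 in DMKG-treated cells. The CWR22Rv1 change was -0.49 (SE 0.24, adjusted p = 0.317 in limma). The lines differed by 1.33 (SE 0.34), which did not pass (adjusted p = 0.0731).

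EZH2, the main catalytic subunit of PRC2, read 11.15 and 10.75 in PC3 controls and 9.39 and 9.54 after starvation. Both starved arrays lay more than 1 log2 unit below the lower control. The gene fell by 1.48 (SE 0.33, adjusted p = 0.0164 in limma). The call was lost without control replicate 1 (adjusted p = 0.101) and without starved replicate 1 (0.0832) or 2 (0.0708). In the time course it went from 12.27 at 0 h to 11.83 at 24 h and 10.68 at 48 h, a 48 h difference of -1.59. In the DMKG experiment it was 12.11 in control, 12.00 in starved and 11.92 in DMKG-treated cells, a difference of -0.10 after the same 48 h. The CWR22Rv1 experiments thus differed in size by over 1 log2 unit, with the time course close to the PC3 change, and the fitted CWR22Rv1 change of -0.85 (SE 0.33) did not pass (adjusted p = 0.188 in limma).

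EZH1, the alternative catalytic subunit, was higher in all starved arrays. It went from 7.41 at 0 h to 7.96 at 24 h and 8.20 at 48 h, a difference that by itself has no test. It was 7.13 in control, 7.45 in starved and 7.18 in DMKG-treated cells, and 6.87 and 6.95 in PC3 controls against 7.42 and 7.26 after starvation. Every starved array without DMKG lay above its own control by 0.31 or more, and the DMKG array lay just above it. The changes were 0.56 in CWR22Rv1 cells (SE 0.19, adjusted p = 0.139 in limma) and 0.43 in PC3 cells (SE 0.19, adjusted p = 0.163), so neither passed. The PC3 signals lay under the 95th percentile of the negative controls. EZH1 and EZH2 ran against each other over the arrays (r = -0.86 after the mean of each experiment was taken off, n = 10, a description).

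**Figure D2:**
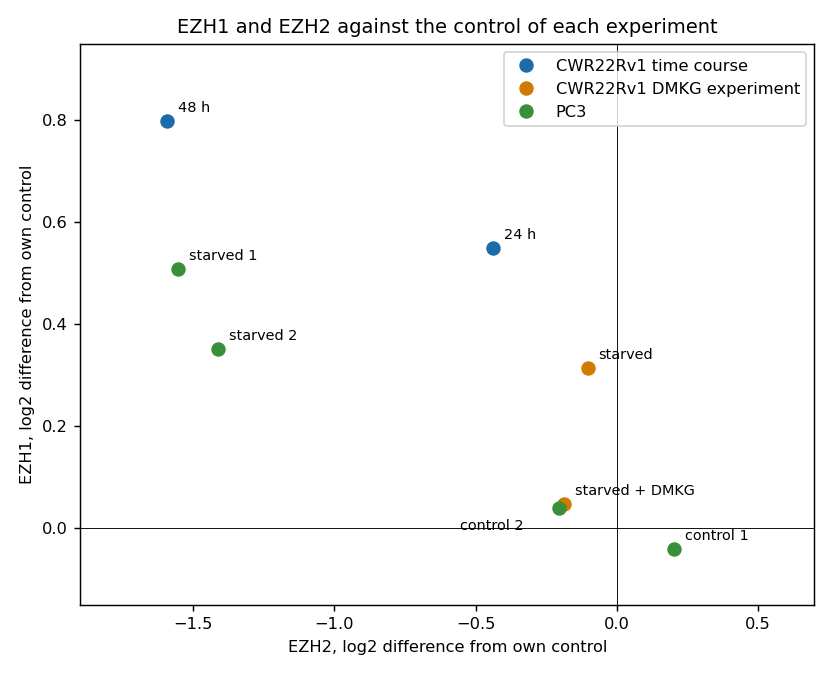
Log2 difference of EZH1 (vertical) against that of EZH2 (horizontal) from the control of the same experiment, for PC3 cells from the mean of both controls, each point 1 array and each colour 1 experiment. The 48 h array of the time course, at -1.59 for EZH2 and 0.80 for EZH1, and both starved PC3 arrays lie at the upper left, while the starved array of the DMKG experiment, at -0.10 and 0.31, lies near the vertical axis.

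SUZ12, the scaffold subunit of PRC2, read 11.99 and 12.04 in PC3 controls and 11.21 and 11.30 after starvation. The groups did not overlap and each was tight. SUZ12 fell by 0.76 (SE 0.17, adjusted p = 0.0175 in limma), and without any one of the PC3 arrays the adjusted p was 0.0729 to 0.0938. In the time course it was 11.08, 10.91 and 10.90 at 0, 24 and 48 h, and in the DMKG experiment its value was 10.80 on every array, as stated above. The CWR22Rv1 change of -0.09 (SE 0.17, adjusted p = 0.850 in limma) therefore rests on the time course. The difference between the lines was -0.67, with a 95% interval from -1.23 to -0.11 for the gene on its own and an adjusted p of 0.172.

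**Figure D3:**
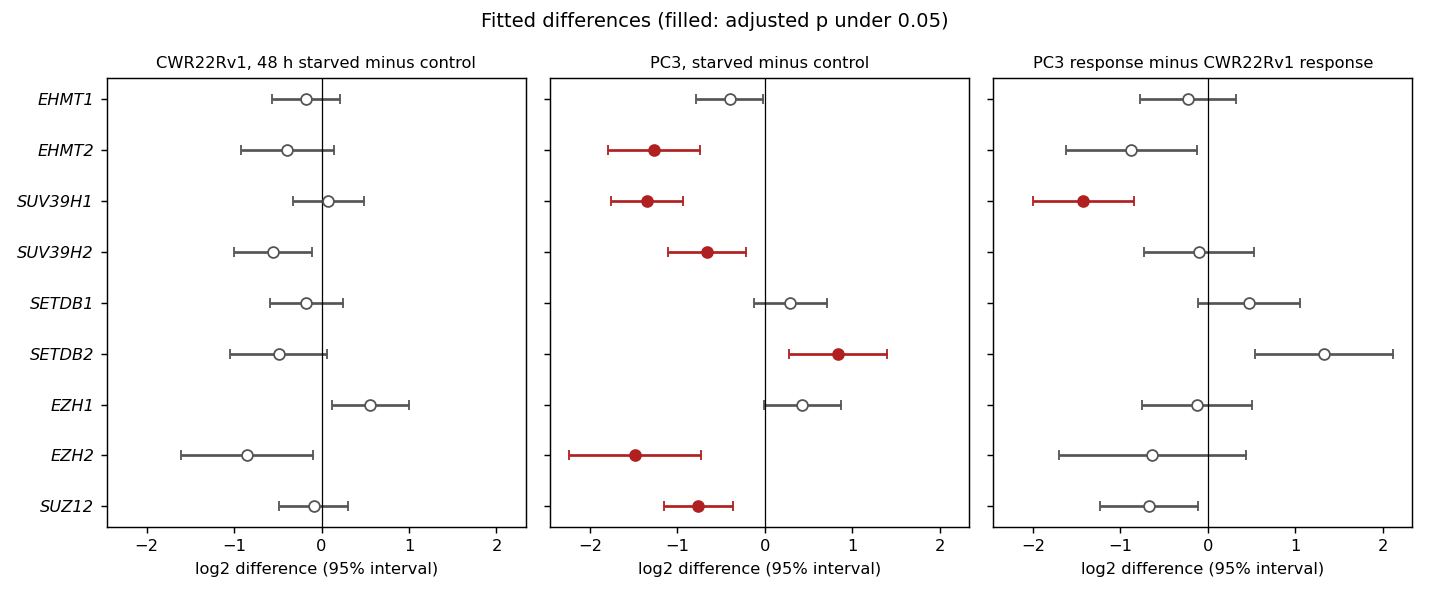
Fitted log2 change of each of the 9 genes after 48 h of starvation in CWR22Rv1 cells, in PC3 cells and as the PC3 minus the CWR22Rv1 response, with its 95% interval from the limma model as a bar and filled points where the adjusted p was under 0.05. In PC3 cells the values run from -1.48 for EZH2 to 0.84 for SETDB2, and in CWR22Rv1 cells from -0.85 for EZH2 to 0.56 for EZH1.

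The sign of the plain 48 h difference was the same in all 3 experiments for 5 of the 9 genes. EHMT1, EHMT2, SUV39H2 and EZH2 were lower in each and EZH1 was higher in each. Over all genes 16.1% were lower and 18.1% higher in all 3. Genes with equal values on the control and starved arrays of the DMKG experiment, SUZ12 among them, could not count. Each pair of arrays there had 3821 to 4650 such genes of 17687, so the shares over all genes are lowered by these ties.

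After 24 h of starvation, no gene among all 17687 passed the test (0%), although an unadjusted p below 0.05 was seen for 1114 higher and 1055 lower genes. EHMT2 was the 1 gene of the 9 past that unadjusted level. That p (0.0444) belongs to a fitted effect of -0.72, which also takes in the other experiment, and with a separate 48 h effect for each experiment, where the effect equals the plain difference of -0.62, it was 0.101 in limma. By plain difference the others ranged from -0.44 for EZH2 to 0.55 for EZH1, and the fitted effects of these genes were -0.07 and 0.43. Between 24 h and 48 h, EZH2 differed by a further -1.15 and EHMT2 by 0.44, back towards its control. A difference beyond 1 log2 unit between these arrays occurred in 3.09% of genes. With a single array at each time these differences have no replicate of their own.

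DMKG added to starved CWR22Rv1 cells changed none of the 9 genes past the test, which no gene of the table passed (0%), and none of the 9 was among the 163 higher and 197 lower genes with an unadjusted p below 0.05. SETDB1 had the largest plain difference of the 9, from 10.66 to 11.18 (0.52). EZH1 was lower with DMKG by 0.27, which brought it to 7.18 beside a control at 7.13. SUV39H2 differed by -0.26 and EZH2 by -0.08, both further from their control, and EHMT2 by 0.14, towards it. A difference beyond 1 log2 unit occurred in 0.266% of genes.

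Control levels of the lines were set side by side after quantile normalization over all arrays, as a description with no test. SUV39H1 was higher in PC3 cells by 3.47, and SETDB1, EZH2, SETDB2 and EZH1 were lower, with differences of -2.14, -2.00, -1.76 and -1.05. SUZ12 was higher by 0.33. For EHMT1, EHMT2 and SUV39H2 the lines overlapped, since the controls of the CWR22Rv1 experiments differed from each other by 1.09, 1.39 and 0.95.

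The other genes of these pathways were counted by list. The named calls in CWR22Rv1 cells were all lost when either 48 h array without DMKG was dropped from the DMKG experiment, which leaves a single pair of arrays, and over all genes the calls there went from 566 higher and 662 lower to 1 and 7. Of 11 accessory PRC2 subunits and inhibitors, 2 rose and none fell in CWR22Rv1 cells, and 1 rose and 1 fell in PC3 cells, with medians of 0.22 and 0.06. AEBP2, a subunit of the PRC2.2 form, rose in both lines, by 0.80 (adjusted p = 0.0360 in limma) and 0.72 (0.0251). LCOR, whose locus also encodes a PRC2.1 subunit, rose by 0.81 in CWR22Rv1 cells (adjusted p = 0.0358). PHF19, which reads methylated H3K36 and brings PRC2.1 to chromatin, fell by 2.75 in PC3 cells (adjusted p = 0.000488), while in CWR22Rv1 cells it was at -0.20 (0.778), with -0.75 in the time course and 0.36 in the DMKG experiment. Of 13 genes of PRC1, the Polycomb complex that ubiquitinates H2A, none passed in CWR22Rv1 cells (RYBP was at 0.75, adjusted p = 0.0506 in limma). In PC3 cells 2 rose, CBX6 by 0.73 (0.0302) and PHC3 by 0.74 (0.0488), and PCGF3 fell by 1.42 (0.00173).

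Among 10 partners of the H3K9 enzymes, 2 rose in CWR22Rv1 cells, and 1 rose and 1 fell in PC3 cells. ZNF644, a zinc finger protein of the EHMT1 and EHMT2 complex, rose by 1.64 in CWR22Rv1 cells (adjusted p = 0.00560 in limma) and was at -0.13 in PC3 cells (0.689), a difference between the lines of -1.77 (0.0118). CDYL, a chromodomain corepressor, rose by 1.28 in CWR22Rv1 cells (0.0145). ATF7IP, which stabilises SETDB1, fell by 0.85 in PC3 cells (0.0158), and MORC2, of the HUSH pathway, rose by 1.02 (0.0130). Of the HP1 proteins with a value, CBX3 fell by 0.68 in PC3 cells (0.0384) and CBX1 was at -0.47 (0.0901).

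The demethylases of the same marks include the Jumonji enzymes. Of 10 H3K9 demethylases, 4 rose and none fell in CWR22Rv1 cells, and 3 rose and 1 fell in PC3 cells, with a median of 0.43 in both against 0.02 over all genes. KDM3A, which removes mono- and dimethyl H3K9, rose by 0.87 (adjusted p = 0.0245 in limma) and 1.08 (0.00395), and KDM7A, which acts on dimethyl H3K9 and H3K27, by 1.41 (0.0304) and 2.60 (0.000935). JMJD1C rose by 1.56 in CWR22Rv1 cells (0.0240), with 0.86 in the time course and 2.27 in the DMKG experiment, and KDM4D fell by 1.28 in PC3 cells (0.00244). Of the H3K27 demethylases, KDM6A rose by 0.79 in PC3 cells (0.0307), and KDM6B was at 0.75 (0.206) in CWR22Rv1 and 0.97 (0.0580) in PC3 cells.

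Other histone methyltransferases were counted in the same way. Of 10 H3K4 enzymes, SETD7 rose in both lines, by 0.92 (adjusted p = 0.0433 in limma) and 0.93 (0.0195), and no other passed. Among 5 H3K36 enzymes, NSD2 fell by 1.17 in PC3 cells (0.0105), and among 4 H4K20 and H3K79 enzymes, DOT1L by 0.79 (0.0238). Of 4 PRDM genes, MECOM rose by 1.19 in PC3 cells (0.00929). Of 13 genes that supply or use S-adenosylmethionine, AHCYL2 rose in both lines, by 1.18 (0.0104) and 0.85 (0.0112), and in PC3 cells NNMT, which methylates nicotinamide, rose by 2.08 (0.00188) and AHCYL1 fell by 0.87 (0.00949).

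Genes of dividing cells moved beside these results. All 10 proliferation markers fell in PC3 cells, with a median of -3.92, and 7 of the 10 fell in CWR22Rv1 cells, with a median of -1.17. MKI67, the Ki-67 antigen, was at -5.05 (adjusted p = 4.12e-05 in limma) in PC3 and -1.46 (0.0159) in CWR22Rv1 cells. CCNB1, the mitotic cyclin, was at -4.36 (4.12e-05) and -2.28 (0.00232), TOP2A at -4.64 (4.12e-05) and -0.91 (0.0445), and BUB1 at -3.80 (5.05e-05) and -1.37 (0.0131). Of 20 E2F factors and S phase targets, 14 fell and none rose in PC3 cells, with a median of -1.11, and none passed in CWR22Rv1 cells, with a median of -0.24. E2F1 was at -2.75 (0.0001) and -0.09 (0.874), and RRM2 at -3.10 (5.05e-05) and -0.68 (0.0606). Whether these changes have a part in the falls of EZH2, SUZ12, SUV39H1 and SUV39H2 was not tested.

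Markers of cell type were counted beside them. Of 6 luminal genes, HOXB13 and KLK2 fell in CWR22Rv1 cells, with changes of -1.65 (adjusted p = 0.0145 in limma) and -1.96 (0.0267), and HOXB13 in PC3 cells, with a change of -2.85 (0.000441). Of 4 epithelial genes, KRT18 rose by 0.90 in CWR22Rv1 cells (0.0325) and KRT8 fell by 1.03 in PC3 cells (0.0177). CD44 rose by 0.99 in PC3 cells (0.0176), as 1 of 4 mesenchymal markers, and CD68 fell by 2.32 (0.00102), as 1 of 4 leukocyte markers. None of 5 fibroblast markers passed in either line (COL1A1 was at 0.06 and -0.46, with adjusted p of 0.923 and 0.169 in limma). Their part in the results above was not tested.

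**Figure D4:**
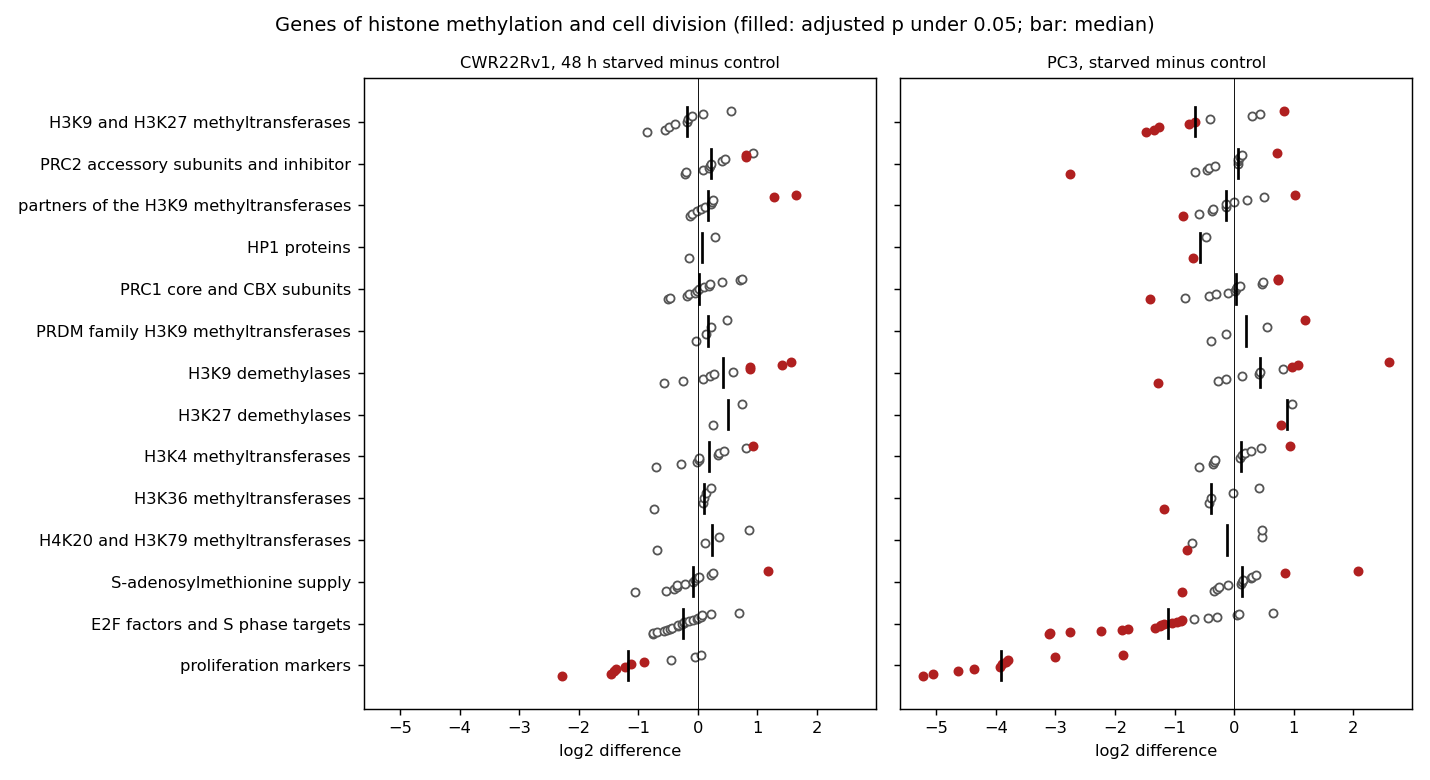
Fitted log2 change after 48 h of starvation in CWR22Rv1 cells and in PC3 cells for the 9 methyltransferase genes and for the other gene lists, each point 1 gene, filled where the adjusted p was under 0.05, and each bar the median of a list. The proliferation markers lie farthest below 0, with medians of -1.17 and -3.92, and the median of the H3K9 demethylases is 0.43 in both lines.

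The genes with the pattern most like that of 2 of the methyltransferases were picked by Pearson correlation over the 10 arrays, after the mean of each experiment was taken off. For EZH1, chosen for the smallest p of the 9 in CWR22Rv1 cells, they were OR10W1 (r = 0.983), EMC2 (0.982) and NRBF2 (0.974). For SUV39H1, chosen for the smallest p in PC3 cells, they were CA12 (0.997), PLPPR5 (0.992) and ZFP91-CNTF (0.991). The arrays share 3 experiments, so these are descriptions.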

How the data were processed

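RNA was measured on 10 Clariom S arrays. The authors made and deposited log2 values with the Transcriptome Analysis Console, and its version, background correction and normalization were not given in the sources used. Probe sets without a single gene symbol were left out. These values were used as deposited, 1 probe set per gene, the one with the highest mean where several share a symbol, which left 17687 genes. One linear model in limma 3.58.1 (R 4.3.3) held an intercept for each of 3 experiments and effects for 24 h, 48 h in CWR22Rv1 cells (shared by both experiments), DMKG and starvation in PC3 cells, with 3 residual and 5.09 prior degrees of freedom. The effects of 24 h and DMKG therefore also take in differences between both 48 h responses. A gene counted as called where its p after Benjamini-Hochberg adjustment over all genes was below 0.05, and a contrast of this model compared the lines. The model was tested on simulated data. The number of arrays limits the precision.

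The genes, the lists and the tests were chosen with earlier results of these data known. Named were all the methyltransferases, in each other list the 2 genes with the smallest p in each line, MKI67, and the 3 genes most like 2 of the methyltransferases. The PC3 replicate numbers were not used as pairs in the main fit. Same-numbered deviations correlated at -0.0269 across genes over 2 pairs, and whether the arrays were made in pairs is not known from the labels. A total of 24 other settings were tried. Among the fits that left out a single array, those without the 24 h or the DMKG array repeat the main fit for the 48 h and PC3 results. Promoters are RefSeq sequences of GRCh38.p14, searched on both strands. Drawings used matplotlib 3.10.9 under Python 3.11.15.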

Additional observations from a re-analysis of the deposited data

Results flagged for a closer look

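Among the methyltransferases, SUV39H1 differed between the lines in its response by -1.43 (PC3 minus CWR22Rv1, adjusted p = 0.0220 in limma). SETDB2 (1.33, adjusted p = 0.0731 in limma) and SETDB1 (0.47, adjusted p = 0.362) had opposite signs in the lines on every array starved for 48 h without DMKG. For neither did the test of the difference pass. The SETDB1 difference in the time course was only -0.014. Its sign turned with quantile normalization (10.83 at 0 h and 10.87 at 48 h) and with median centring (4.24 and 4.29).

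Of the other named genes, the difference between the lines passed the limma test and was below 0 for PHF19 (-2.55), ZNF644 (-1.77), KDM4D (-1.37), BUB1 (-2.43), CCNB1 (-2.08), MKI67 (-3.59), TOP2A (-3.74), E2F1 (-2.66), RRM2 (-2.42) and CD68 (-2.08). It passed and was above 0 for NNMT (2.09), STEAP2 (1.46) and CD44 (1.44). Of these 13 differences, 4 held in every fit that left out a single array (TOP2A, RRM2, E2F1 and MKI67) and 9 were lost in at least 1.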

How the results depend on the processing

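All 9 genes kept the direction of their PC3 change under every setting that tested them, and none was called at 48 h in CWR22Rv1 cells by limma in any fit that left out a single array. In PC3 cells, the number of the 9 called lower, 5 in the model as described, ranged from 1 to 3 in the fits without a PC3 array (1 without starved replicate 2, 3 without control replicate 2), was 3 with a minimum of 2-fold, and was 0 with the methods' t-test after Benjamini-Hochberg adjustment. SETDB2, the 1 called higher, was not called (0) without any one PC3 array, with that t-test, with the 2-fold minimum, or when the genes with equal values in the DMKG experiment were left out, which removes SETDB2 itself. That last setting and leaving out the whole DMKG experiment were chosen after seeing the data. Over all 17687 genes in PC3 cells, the 2-fold minimum left 853 called higher and 1025 lower. The methods' t-test after Benjamini-Hochberg adjustment called only 3 higher and 7 lower, so few calls among the 9 could arise with it. With the PC3 replicate number as a block (replicate block), SUV39H2 lost its call (adjusted p = 0.0610) and 4 genes were called lower, as also with quantile normalization, median centring, separate CWR22Rv1 effects, PC3 cells alone or the DMKG experiment left out (0.0534 to 0.0650). The difference between the lines in SUV39H1 was not called (0 of the 9 lower) with the DMKG experiment left out, and leaving out single arrays gave 0 to 1. With limma's trend and robust options, SETDB2 was called higher, 1 of the 9. Of the 8 differences between the lines that did not pass, 3 changed sign when single arrays were left out, with ranges of -0.29 to 0.082 for SUV39H2 (highest without PC3 control replicate 2), -0.37 to 0.12 for EZH1 (highest without the time course control or 48 h array) and -1.38 to 0.11 for EZH2 (highest when either array without DMKG was dropped from that experiment, or the experiment as a whole, at 0.11). Of all 17687 genes, 1697 were called higher and 1770 lower in PC3 cells, against 721 to 847 and 898 to 1018 without 1 of its arrays, so fewer calls among the 9 go with fewer calls in the table. In CWR22Rv1 cells, 566 rose and 662 fell, against 1 and 7 without the DMKG experiment, 311 and 397 with the replicate block, 913 and 997 with trend and robust options, and 0 (1391 and 1490 at an unadjusted p under 0.05) when that line was fitted on its own. In CWR22Rv1 cells the sign of PHF19 (-0.75 to 0.36) and of E2F1 (-0.21 to 0.032, and 0.032 without the DMKG experiment), neither called, changed in the same way. Of the named genes of the other lists, 30 were called in PC3 cells, of which 15 held in every fit that left out a single array, and 16 in CWR22Rv1 cells, of which 0 did. Except where the construction of a setting shows it, the cause was not tested. Low signals of EZH1 and SETDB2, near those of negative controls, limit what can be said of them in PC3 cells, and of SETDB2 at 48 h in the time course. Low signals likewise limit NNMT and KDM4D in PC3 cells.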
